A study of Homo sapiens with 17 samples.

Results

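The comparison set human lung fibroblasts that carried an active RAS oncogene together with a knockdown of SMARCA4 against growing cells of the same line, and asked which traits of RAS-induced senescence were still present, which had returned to the level of growing cells and which were new. Its members are 11 of the 17 RNA-seq libraries, namely all 6 labelled 4OHT with siSMARCA4 and all 5 labelled DMSO with siNT. The cells were IMR90 ER:RAS, a fetal lung fibroblast line that carries a retroviral fusion of RAS to the estrogen receptor, which 4-hydroxytamoxifen (4OHT) switches on. Both groups carry the construct and both were transfected with siRNA, siSMARCA4 against SMARCA4 or the non-targeting siNT, a day before DMSO or 4OHT was added, and RNA was taken 7 days after induction. The remaining 6 libraries, 4OHT with siNT, are senescent cells without the knockdown and are used to say what senescence itself changed. No library combines DMSO with siSMARCA4, so an effect of the knockdown that needs no RAS cannot be told apart from one that does. Expression of ER:RAS depends on a viral vector in a single line, and the labels do not say whether libraries of a group are separate cultures, so the p-values measure only the spread between these libraries, which may be technical.

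Oncogene-induced senescence is a lasting exit from the cell cycle. CDK inhibitors such as p16 and p21 keep the RB proteins active, the genes for DNA replication and mitosis are silenced, B-type lamin is lost, and the cells release cytokines, chemokines, proteases and growth factors, together called the senescence-associated secretory phenotype (SASP), which draw immune cells such as natural killer cells to them. SMARCA4, also called BRG1, is an ATPase motor of the SWI/SNF complexes, which slide and evict nucleosomes and so set which promoters and enhancers are open.

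Each library gave 38559660 to 67759411 counts on genes, with 26312 to 29253 genes detected. Levels are given as CPM, the gene's count per 1000000 counts on the tested genes of its library. That library size was scaled by a normalization factor (TMM, 0.951 to 1.07). DMSO values are listed in the order 2-1V, 2-2V, 2-2VM, 4-2VM, 4-3VM, after the numbers and the suffix V or VM in the labels, where 2 and 4 follow the siRNA's name, for siNT as for siSMARCA4, and the meaning of the other marks is not given. The siNT libraries with RAS divided by the 2 or 4 as well, with chi-square values per gene of at most 27.6 between libraries of the same number and 33.5 to 82.2 across, so siRNA sequence and any other trait tied to the number cannot be told apart. Of the siSMARCA4 libraries 3 are V and 3 are VM, of the DMSO libraries 2 and 3, and all 6 of 4OHT siNT are VM. The siSMARCA4 against DMSO comparison is therefore nearly balanced for the suffix. The difference between siSMARCA4 and siNT in RAS cells is not. For it, values or counts within the VM libraries are given beside most statements. Within a suffix the number is not balanced. The DMSO V libraries are all numbered 2, and the siSMARCA4 V libraries are 2-3V, 4-2V and 4-3V. A fold change is the fitted log2 difference ± SE from a model of all 17 libraries (edgeR quasi-likelihood), relative to DMSO unless the siRNAs are named, and a gene passed, or was called, at a Benjamini-Hochberg adjusted p below 0.05 over all genes tested. As a check of the cell type, the 10 fibroblast markers summed to 23600 to 27910 CPM in the DMSO libraries and 7703 to 11180 CPM in the siSMARCA4 libraries. They include the matrix genes COL1A1, COL1A2, COL3A1 and DCN, so this sum is not separate from the matrix results below. Vimentin (VIM) stayed within -0.25 to 0.15 of the DMSO level on the log2 scale (95% interval), whereas 8 of the 10 markers fell. The 6 epithelial markers summed to 4.49 to 9.72 CPM in DMSO and 0.776 to 2.46 CPM in siSMARCA4 libraries, with both genes tested lower and keratins KRT5 and KRT14 and surfactant protein SFTPC at 0 counts in both groups. The 6 endothelial markers summed to 1.51 to 2.69 CPM in DMSO and 3.67 to 7.46 CPM in siSMARCA4 libraries, with 3 of 5 tested higher, and stood at 5.73 to 10.8 CPM with siNT. The 8 leukocyte markers summed to at most 1.09 CPM in any library of either group. What part cells of other types have in the results was not tested. In bulk RNA, fewer cells with a transcript and less of it per cell cannot be told apart.

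SMARCA4 (ENSG00000127616, GRCh38 chromosome 19, 10960932 to 11079426) had 169, 197, 207, 213 and 217 CPM in the DMSO libraries and 69.5 to 129.6 CPM (median 82.4) in the siSMARCA4 libraries, against 272 ± 13.6 CPM (SD, n = 6) in 4OHT siNT. Every siSMARCA4 library lay below every DMSO library, and the log2 fold change was -1.16 ± 0.13, adjusted p = 4.44e-07. The knockdown was thus deeper against senescent cells, where SMARCA4 RNA had risen (0.44, adjusted p = 0.00841), than against growing cells, with log2 fold changes of -1.59 and -1.16. It was also uneven. The 3 V libraries kept 106, 129.6 and 84.8 CPM and the 3 VM libraries 70.4, 80.1 and 69.5 CPM, with no overlap, and against DMSO libraries of the same suffix the log2 fold change was -0.78 in V and -1.54 in VM. The paralogous motor SMARCA2 was also lower than in DMSO, from 43.3, 44.2, 47.2, 44 and 30.3 CPM to 18.9 to 23.4 CPM (median 20.6), a log2 fold change of -0.98 ± 0.10, adjusted p = 1.21e-07. This value includes any change of SMARCA2 that senescence made without the knockdown.

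MKI67, which encodes the proliferation marker Ki-67, had 48.5, 75.6, 36.4, 47.1 and 21.4 CPM in the DMSO libraries and 0.753 to 2.1 CPM (median 1.2) in the siSMARCA4 libraries, a log2 fold change of -5.17 ± 0.31, adjusted p = 8.53e-11. IL6, a cytokine that defines the SASP, had 7.51, 5.49, 4.96, 3.31 and 3.02 CPM and rose to 90.4 to 193 CPM (median 136), a log2 fold change of 4.85 ± 0.30, adjusted p = 1.05e-10. For both genes the groups were far apart. Cells with RAS and lowered SMARCA4 RNA held little Ki-67 RNA and much more IL6 RNA than growing cells. So did 4OHT siNT cells, at 0.892 ± 0.267 and 52.8 ± 14.7 CPM.

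**Figure D1:**
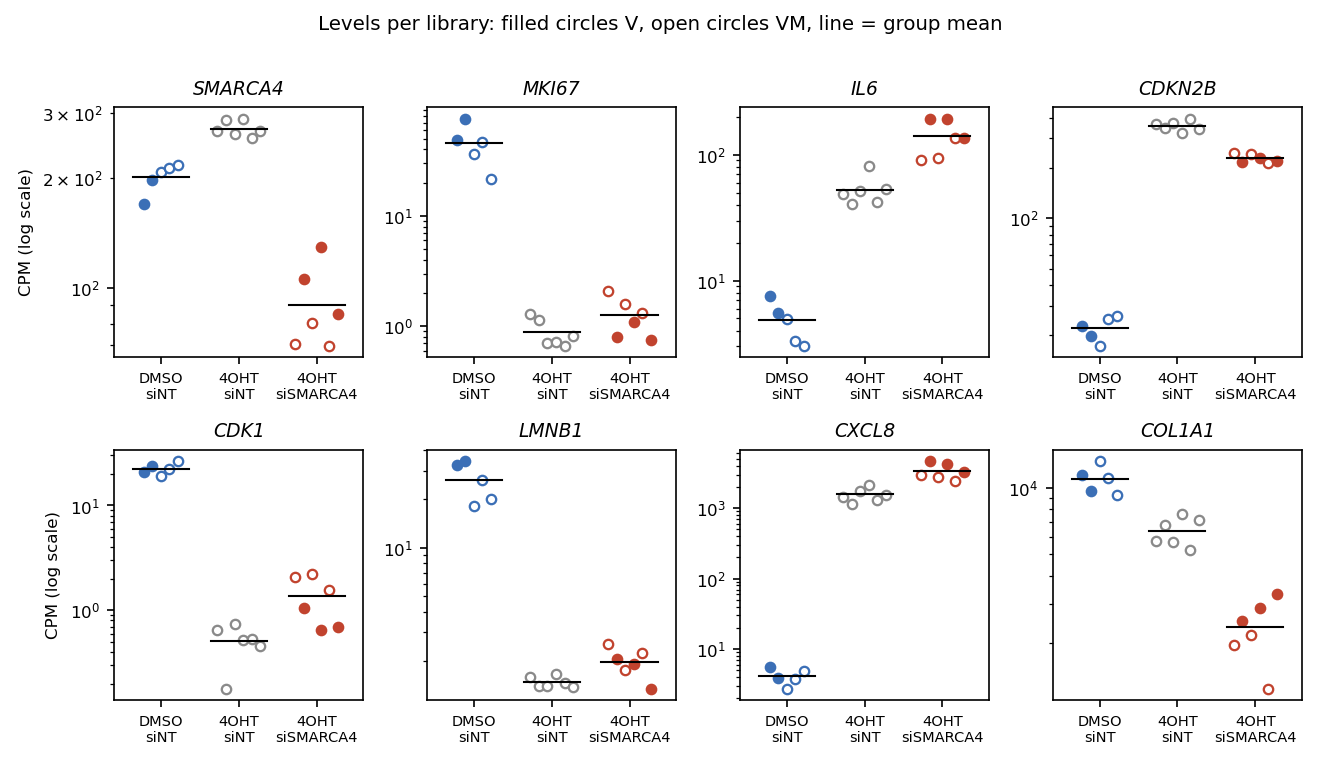
Levels of 8 genes in each library in CPM on a log axis, by group, with V libraries as filled and VM libraries as open circles and a line at the group mean. MKI67, CDK1 and LMNB1 lie far below the DMSO libraries in both 4OHT groups, CDKN2B, IL6 and CXCL8 lie far above them, and COL1A1 falls further from a siNT mean of 6382 to a siSMARCA4 mean of 2344 CPM.

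Across the 19473 genes tested, 10789 differed between siSMARCA4 and DMSO libraries, which is 55.4% of them. Of these, 5334 were higher (27.4%) and 5455 lower (28.0%), and for 36.4% of all genes the libraries of both groups did not overlap, while 1756 (9.02%) were higher and 2473 (12.7%) lower by 2-fold or more, so the counts for gene lists below have to be read against these shares. The median log2 fold change of all genes was 0.00236. Within V libraries alone 3682 genes were higher and 4173 lower, and within VM libraries alone 4225 and 4731.

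To ask what was left of senescence, genes were first sorted by the change from DMSO to 4OHT with siNT. It called 54.5% of genes, and 4075 passed at 2-fold or more, 1835 up (9.42%) and 2240 down (11.5%). This comparison and the one with siSMARCA4 share the DMSO libraries, so only the counts the sorting itself defines are given. A senescence gene was called persisting where it still passed against DMSO in the same direction, at any fold. It was restored where it did not pass against DMSO, its 95% interval lay inside 2-fold and the siRNA groups differed. It was reversed where it had passed beyond DMSO to the other side, and undetermined otherwise. Persisting therefore asks less than restored, and a gene left less than 2-fold from DMSO can still count as persisting. Persisting genes numbered 3670 of 4075 (90.1%), restored genes 125 (3.07%), reversed genes 8, and 272 stayed undetermined. The share persisting was 86.6% of genes that had risen and 92.9% of genes that had fallen.

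For most persisting genes the test found no difference between the siRNA groups, which does not show that they were equal. Among the 1589 risen genes that persisted, the siRNA groups did not differ by the test for 1065, the rise was smaller with siSMARCA4 for 316 and larger for 208. Among the 2081 fallen genes that persisted the numbers were 1490, 216 and 375. Of all genes tested, 24.3% were called between the siRNA groups, 11.1% higher and 13.2% lower. Inside the VM libraries, which are part of the same data and so no independent check, the siRNA difference was called in the same direction for 476 of the 583 genes with a larger change and 461 of the 532 with a smaller one, where 12.2% of all genes in that fit were higher and 14.8% lower.

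**Figure D2:**
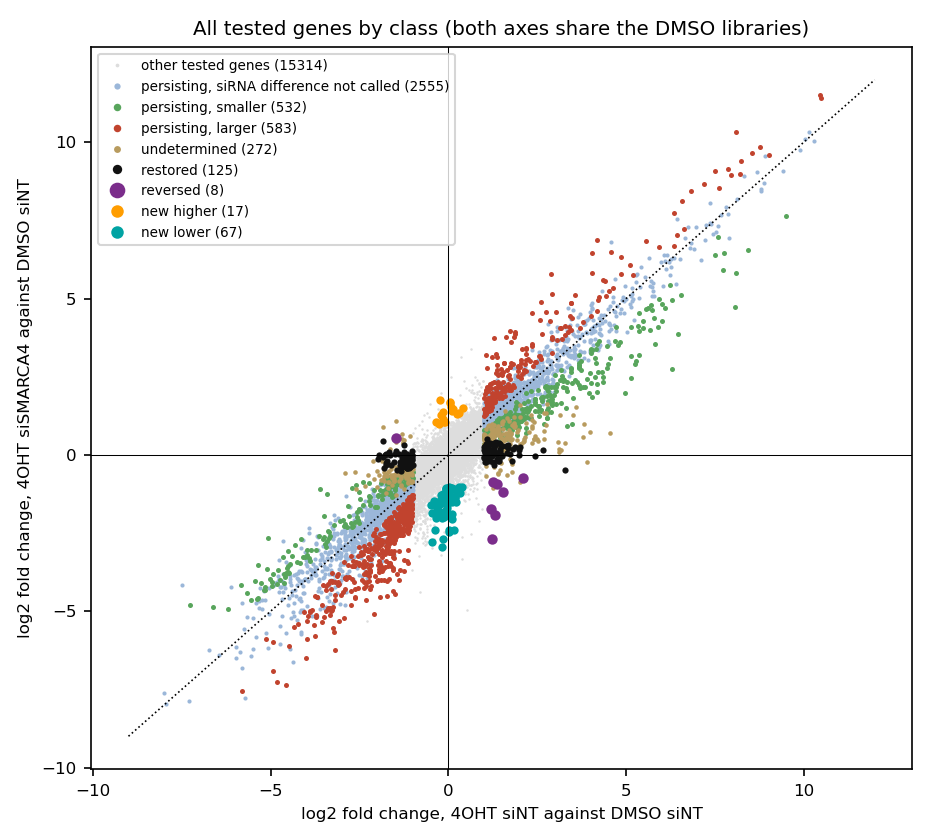
Each point is 1 of 19473 genes, with its log2 fold change in 4OHT siNT libraries against DMSO on the x axis and in 4OHT siSMARCA4 libraries against DMSO on the y axis, coloured by class with the count of each class in the legend. Most of the 4075 senescence genes lie along the dotted line of equal change, 125 restored genes lie near 0 on the y axis, and the new genes (17 higher, 67 lower) lie near 0 on the x axis. Both axes share the DMSO libraries.

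The low RNA of cell cycle genes persisted. All 31 mitosis genes tested fell against DMSO, with a median log2 fold change of -3.97, and so did 39 of 40 genes of DNA replication (median -2.04) and 14 of 15 genes of homologous recombination and the Fanconi pathway (median -2.25). CDK1, the kinase that starts mitosis, had 20.6, 24.1, 19.1, 22.4 and 26.4 CPM in the DMSO libraries and 0.644 to 2.22 CPM (median 1.31) in the siSMARCA4 libraries, a log2 fold change of -4.04 ± 0.30, adjusted p = 1.23e-09. TOP2A, which untangles chromosomes, went from 102, 119, 75.7, 97.5 and 89.4 CPM to 4.11 to 9.65 CPM (median 6.44), a log2 fold change of -3.90 ± 0.20, adjusted p = 1.09e-11. TK1, a thymidine kinase of S phase, had 45.1, 48.8, 32.1, 37.5 and 39 CPM and then 0.989 to 2.46 CPM (median 1.7) (-4.58 ± 0.20, adjusted p = 1.27e-12). No siSMARCA4 library came near the DMSO range for any of these. The exceptions in direction were CCNE1, the cyclin that drives entry into S phase (0.75, adjusted p = 5.65e-08), and PALB2, the partner of BRCA2 (0.27, adjusted p = 0.0314).

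At these low levels a small upward shift was measured between siRNAs. Of the 31 mitosis genes, 12 were higher with siSMARCA4 than with siNT in RAS cells and 1 was lower, and within VM libraries 21 were higher and 1 lower. Their median log2 fold change against DMSO was -4.45 in siNT libraries. NDC80, a kinetochore protein, averaged 12.6 CPM in DMSO, 0.216 in siNT and 0.701 in siSMARCA4 libraries, and CDK1 22.5, 0.511 and 1.38 CPM. The siRNA differences were 1.67 ± 0.35, adjusted p = 0.00242 and 1.40 ± 0.31, adjusted p = 0.00374, and within VM libraries 2.19 and 1.94. MKI67 did not pass over all libraries (0.50 ± 0.32, adjusted p = 0.268) but did within VM libraries (0.91, adjusted p = 0.0261). AURKA, a spindle pole kinase, was the 1 mitosis gene that fell further (-0.40 ± 0.10, adjusted p = 0.00874, within VM -0.56), and in the replication list MCM3, a subunit of the replicative helicase, did the same (-0.54 ± 0.12, adjusted p = 0.00276, within VM -0.42).

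A short element recurs in promoters of the mitosis list. The cell cycle homology region (CHR, searched as TTTGAA on both strands) is where the DREAM complex of RB-related proteins is known to silence mitosis genes. It was found in the 250 bases before the start of 14 of the 25 mitosis genes with a RefSeq promoter window, in 1 of 34 replication genes, and in 16.1% of all 27305 genes with a window. It was also found in 3 of 6 lamin and HMGB genes, 7 of 16 TGF-beta family genes and 3 of 7 prostaglandin synthesis genes. The 150 bases before the start of MKI67 and of CCNB2, the gene for cyclin B2, are shown on the gene's strand (GRCh38.p14, chr10:128126424-128126573, minus strand, and chr15:59104996-59105145, plus strand), with the element in capitals.
MKI67: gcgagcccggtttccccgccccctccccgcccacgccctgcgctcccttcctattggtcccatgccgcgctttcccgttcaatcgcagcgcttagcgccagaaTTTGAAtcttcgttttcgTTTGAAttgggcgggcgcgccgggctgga
CCNB2: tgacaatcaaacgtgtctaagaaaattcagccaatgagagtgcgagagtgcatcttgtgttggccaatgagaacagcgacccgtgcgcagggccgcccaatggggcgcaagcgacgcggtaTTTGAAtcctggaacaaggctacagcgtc
CCNB2 had 24, 26.7, 17, 19 and 19.1 CPM in the DMSO libraries and 1.05 to 1.41 CPM (median 1.23) in the siSMARCA4 libraries, a log2 fold change of -4.10 ± 0.16, adjusted p = 2.67e-13, and did not differ by the test between siRNAs (0.05 ± 0.15, adjusted p = 0.863, within VM 0.14).

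The main CDK inhibitor RNAs stayed above DMSO, at lower levels than with siNT. CDKN2B, which encodes p15, had 22.6, 19.9, 17.2, 25 and 26.1 CPM in the DMSO libraries and 214 to 245 CPM (median 225) in the siSMARCA4 libraries, a log2 fold change of 3.36 ± 0.10, adjusted p = 1.59e-14, and stayed below the siNT level of 357 ± 24.9 CPM (-0.65 ± 0.09, adjusted p = 6.61e-05). CDKN1A, which encodes p21, had 820.4, 789, 909, 853 and 960.3 CPM and then 1363 to 1704 CPM (median 1527) (0.83 ± 0.07, adjusted p = 2.23e-08), against 2040 ± 93.1 CPM with siNT (-0.41 ± 0.07, adjusted p = 0.00047). CDKN2A, whose locus encodes p16 and ARF and whose counts do not separate them, had 39.6, 39.9, 38.9, 51.7 and 77.4 CPM and then 53 to 89.1 CPM (median 78.5) (0.59 ± 0.16, adjusted p = 0.00397). Its groups overlapped, it did not pass within VM libraries (0.48), where it met the criteria for restored, and the siNT libraries were higher than both (117 ± 8.02 CPM, siRNA difference -0.65 ± 0.15, adjusted p = 0.005). All 3 differences between siRNAs also passed within VM libraries, at -0.60, -0.44 and -0.55. CDKN1B (p27) and CDKN2C (p18) stayed low, at -1.1 and -3.85, and CDKN1C (p57) was among the restored genes over all libraries, with values further on. Lamin B1 (LMNB1), whose loss is a mark of senescence, remained at 1.35 to 2.54 CPM (median 1.98) against 32.3, 34.2, 18.1, 26.1 and 19.9 CPM in the DMSO libraries (-3.72 ± 0.17, adjusted p = 3.26e-12). All 7 genes of the lamin and HMGB list fell, HMGB2, a chromatin protein that keeps SASP genes open, with a log2 fold change of -3.80.

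**Figure D3:**
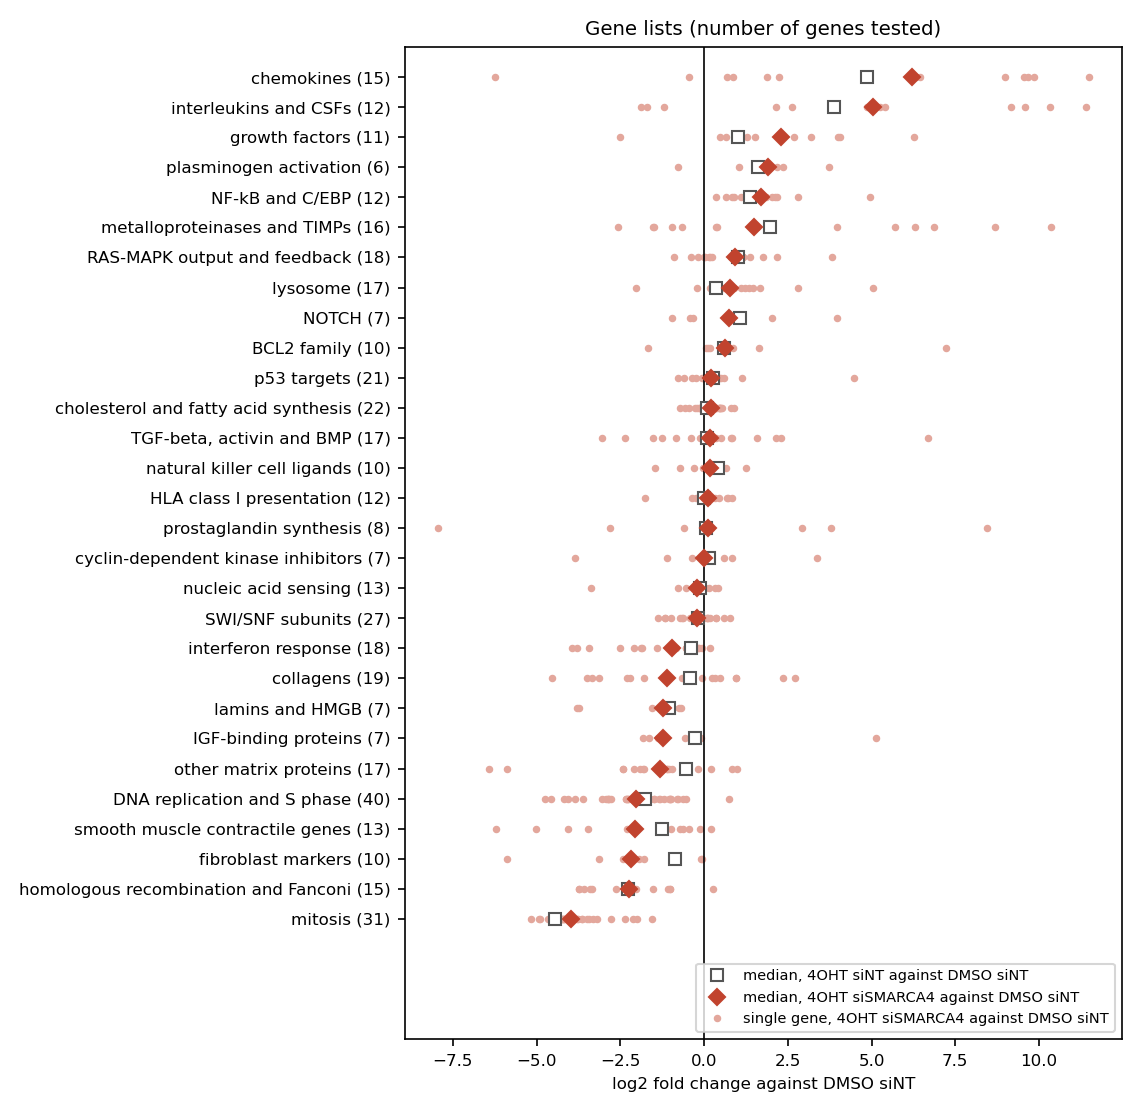
Log2 fold changes against DMSO for 29 gene lists, with the number of genes tested in brackets, small dots for single genes with siSMARCA4, a filled diamond for their median and an open square for the median of the same genes with siNT. Medians run from 6.22 for chemokines to -3.97 for mitosis genes with siSMARCA4, and the fibroblast, matrix and collagen medians lie to the left of their siNT squares.

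The secretory phenotype persisted, and part of it was higher than with siNT. Of 12 interleukins and colony-stimulating factors tested, 9 rose and 2 fell against DMSO, and of 15 chemokines 12 rose and 1 fell. The median log2 fold changes were 5.05 and 6.22, against 3.89 and 4.85 for the same genes in siNT libraries. The gap between such medians is not the shift of a typical gene. The median siRNA difference of single genes was 0.437 and 0.67, and within VM libraries 0.0945 and 0.213. CXCL8, a neutrophil chemokine also called IL-8, had 5.52, 3.92, 2.74, 3.7 and 4.91 CPM in the DMSO libraries and 2441 to 4633 CPM (median 3100) in the siSMARCA4 libraries (9.66 ± 0.29, adjusted p = 1.41e-14). CXCL10, a T and natural killer cell attractant, had 1.44, 0.286, 0.175, 0.214 and 0.119 CPM and then 31.5 to 55.6 CPM (median 35.3) (6.45 ± 0.43, adjusted p = 3.96e-10). CSF2, which encodes GM-CSF, had 0.176, 0.163, 0.158, 0.117 and 0.237 CPM and then 76 to 147 CPM (median 87.5) (9.16 ± 0.36, adjusted p = 3.36e-13). None of the 3 genes had a siSMARCA4 library near the DMSO range.

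Between siRNAs, 4 interleukins and colony-stimulating factors were higher and 1 lower, and 7 chemokines were higher and none lower. Within VM libraries these counts were 2 and 2, and 4 and 2. The 6 genes higher there too were IL6 (1.04), CSF2 (1.05), CXCL8 (0.81), CXCL10 (2.32) and the neutrophil chemokines CXCL2 (1.1) and CXCL5 (0.68). The interleukin 1 genes behaved otherwise. IL1B, an initiator of the SASP, had 1.35, 0.327, 0.631, 0.876 and 0.728 CPM in the DMSO libraries and 517 to 1820 CPM (median 959) in the siSMARCA4 libraries (10.33 ± 0.49, adjusted p = 3.5e-12), but the siRNA difference was 0.18 ± 0.29, adjusted p = 0.699 over all libraries and -0.68 within VM libraries (adjusted p = 0.00768). IL1A, which acts at the cell surface, CSF3, which encodes G-CSF, and CCL20, which attracts T helper 17 cells, were higher than with siNT over all libraries (0.56 ± 0.18, adjusted p = 0.0334, 0.93 ± 0.31, adjusted p = 0.0367 and 1.03 ± 0.29, adjusted p = 0.016) and not by the test within VM libraries (0.12, 0.36 and 0.13). For CCL20 the 3 V libraries held 50.8, 65.8 and 54.6 CPM and the 3 VM libraries 16.2, 15.7 and 29.9 CPM, so the suffix separated them. The monocyte chemokine CCL2 was not called, at 36.8, 26.8, 19.6, 18.8 and 20 CPM in the DMSO and 17.9 to 63.8 CPM (median 36.4) in the siSMARCA4 libraries (0.69 ± 0.31, adjusted p = 0.0633), and its log2 fold change was 0.89 within V and 0.02 within VM libraries. The falls that persisted were those of CXCL12, a homing chemokine of fibroblasts (-6.24 ± 0.25, adjusted p = 3.61e-13), IL15, a growth factor of natural killer cells (-1.87 ± 0.20, adjusted p = 1.81e-07), and CSF1, the macrophage growth factor (-1.69 ± 0.22, adjusted p = 2.29e-06).

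A pair of known inducible elements was looked for in these promoters. The AP-1 site is TGANTCA, a palindrome but for its middle base. It was found before the start of 3 of 13 chemokine genes, 2 of 7 interleukin and colony-stimulating factor genes and 2 of 8 metalloproteinase genes with a window. It was also found before 2 of 4 plasminogen activation genes and 3 of 17 p53 targets, and before 0 of 9 growth factor genes. Of all genes with a window, 8.06% held it. An NF-kB motif was searched as GGGRNNYYCC on both strands, with R for A or G, Y for C or T and N for any base. Sites that depart from this pattern were not counted, so lower-case stretches may hold others. The motif was found before 8 of the 13 chemokine genes, 1 of the 7 interleukin and colony-stimulating factor genes and 0 of the 8 metalloproteinase genes. It was also found before 11 of 23 SWI/SNF genes, and in 11.8% of all genes with a window. The 150 bases before the start are shown for CXCL8 and MMP10 with the AP-1 letters in capitals and for IL6 with the NF-kB motif in capitals (chr4:73740419-73740568, plus strand, chr11:102780629-102780778, minus strand, and chr7:22727050-22727199, plus strand).
CXCL8: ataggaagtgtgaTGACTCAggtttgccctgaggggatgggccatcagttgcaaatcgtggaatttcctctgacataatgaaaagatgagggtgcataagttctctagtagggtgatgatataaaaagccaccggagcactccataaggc
MMP10: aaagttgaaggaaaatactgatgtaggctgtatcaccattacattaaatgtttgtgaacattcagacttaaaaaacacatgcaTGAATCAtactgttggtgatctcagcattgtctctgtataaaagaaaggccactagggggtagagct
IL6: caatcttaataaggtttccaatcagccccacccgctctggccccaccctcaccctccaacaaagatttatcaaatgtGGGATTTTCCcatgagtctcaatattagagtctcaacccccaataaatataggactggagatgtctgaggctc

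Most matrix-degrading enzymes rose. Of 16 metalloproteinases and their inhibitors tested, 10 rose and 5 fell, with a median log2 fold change of 1.48 against 1.98 in siNT libraries. Between siRNAs 3 were higher with siSMARCA4 and 5 lower (4 and 7 within VM libraries). MMP3, stromelysin 1, had 3.33, 2.25, 4.95, 5.24 and 7.23 CPM in the DMSO libraries and 1477 to 2881 CPM (median 1722) in the siSMARCA4 libraries (8.67 ± 0.30, adjusted p = 8.3e-14). MMP10, stromelysin 2, had 0.141, 0, 0.0526, 0.0779 and 0.0678 CPM and then 64.3 to 118 CPM (median 101) (10.35 ± 0.42, adjusted p = 5.01e-13), and MMP12, a macrophage elastase, had 0.141, 0.0612, 0.0351, 0.175 and 0.423 CPM and then 14.3 to 26.1 CPM (median 20.2) (6.86 ± 0.38, adjusted p = 2.49e-11). All siSMARCA4 libraries lay above all siNT libraries for these 3 genes, with siRNA differences of 1.55, 2.19 and 2.57 within VM libraries. MMP1, the interstitial collagenase, rose by 3.97. Between siRNAs it was not called over all libraries (0.32 ± 0.13, adjusted p = 0.0911) but was within VM libraries (0.33). TIMP3, an inhibitor of these proteases bound to matrix, fell below siNT (-1.52 ± 0.14, adjusted p = 2.19e-08 against DMSO, -0.68 ± 0.13, adjusted p = 0.00118, within VM -0.64 between siRNAs), while TIMP1 stayed high (1.95). MMP16, a membrane-anchored protease, was lower than DMSO with siSMARCA4 (-0.66 ± 0.18, adjusted p = 0.00379) and not called with siNT (0.04), with a log2 fold change of -0.99 within VM and -0.08 within V libraries.

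Growth factors rose as a group, 10 of 11, with a median log2 fold change of 2.31 against 1.02 in siNT libraries, and 6 were higher than with siNT and none lower (5 and 2 within VM libraries). The median siRNA difference of single genes was 0.479, and 0.343 within VM libraries. FGF2, basic fibroblast growth factor, had 65.4, 82.3, 82.1, 110.3 and 97 CPM in the DMSO libraries and 379.6 to 488 CPM (median 438) in the siSMARCA4 libraries (2.31 ± 0.12, adjusted p = 8.19e-12), well above the siNT level of 158 ± 13.2 CPM (1.45 ± 0.11, adjusted p = 2.19e-07, within VM 1.52). VEGFA, which drives vessel growth, rose by 2.67, and the EGF receptor ligand AREG by 6.25. VEGFC, a growth factor of lymphatic vessels, was higher than DMSO with siSMARCA4 (0.47 ± 0.15, adjusted p = 0.0114) and not by the test with siNT (-0.02 ± 0.15, adjusted p = 0.933). The keratinocyte growth factor FGF7 was the 1 member that fell (-2.52 ± 0.19, adjusted p = 2.1e-09). In the plasminogen system PLAU, the urokinase, stayed high (2.36) and PLAT, the tissue activator, rose less than with siNT (2.18 ± 0.18, adjusted p = 8.14e-09 against DMSO, -0.80 ± 0.16, adjusted p = 0.00201, within VM -1.23 between siRNAs).

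Of 8 genes of prostaglandin synthesis 3 rose and 2 fell. PTGS2, the inducible cyclooxygenase COX-2, had 2.34, 1.37, 1.51, 2.47 and 1.17 CPM in the DMSO libraries and 507 to 797 CPM (median 588) in the siSMARCA4 libraries (8.45 ± 0.25, adjusted p = 1.41e-14), above all siNT libraries (1.62 ± 0.17, adjusted p = 7.53e-06, within VM 1.53). PTGES, which makes prostaglandin E2, had 5.7, 3.12, 1.88, 2.24 and 2.27 CPM and then 23.9 to 50.6 CPM (median 48.5) (3.78 ± 0.34, adjusted p = 2.09e-08, between siRNAs 2.17 ± 0.29, adjusted p = 6.48e-05, within VM 2.44). The constitutive enzyme PTGS1 went the other way, from 134, 92.7, 136, 59.6 and 43.9 to 7.31 to 15.9 CPM (median 14.1) (-2.81 ± 0.27, adjusted p = 5.18e-08), while siNT cells differed from DMSO by -0.71. PLA2G4A, the phospholipase that frees arachidonic acid, rose by 2.93. PTGIS, prostacyclin synthase, had 163 counts over the DMSO libraries and 0 over the siSMARCA4 libraries, at least 63.2-fold lower when 3 counts over the group are taken as the floor.

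**Figure D4:**
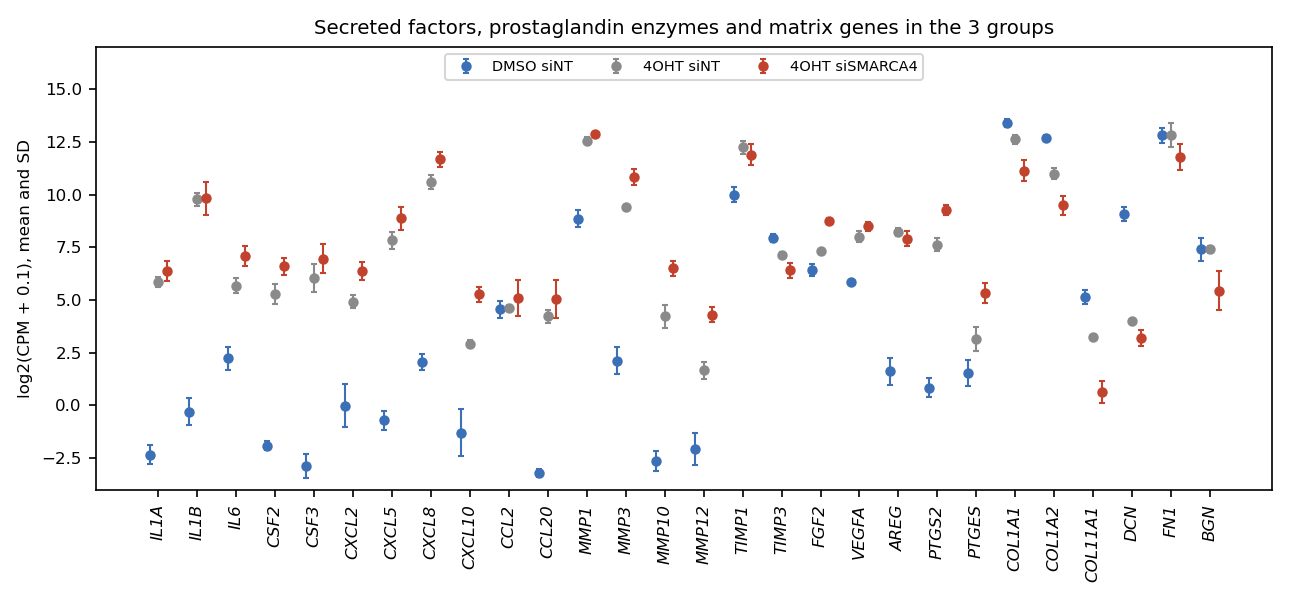
Mean log2(CPM + 0.1) with SD for 28 genes in the 3 groups of 5 (DMSO), 6 (siNT with RAS) and 6 (siSMARCA4 with RAS) libraries. Interleukins, chemokines, stromelysins and PTGS2 lie highest in the siSMARCA4 group for most genes shown, while COL1A1, COL1A2, COL11A1 and DCN lie lowest in it.

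More matrix RNA was lost than in senescence alone. Of 19 collagens 11 fell and 5 rose against DMSO, with a median log2 fold change of -1.10 against -0.43 in siNT libraries, and 11 were lower than with siNT and none higher. Of 17 other matrix genes 13 fell and 2 rose, with a median of -1.32 against -0.54, and again 11 were lower than with siNT and none higher. Within VM libraries 10 genes of each list were lower than with siNT and none higher. COL1A1, the main chain of type I collagen, had 11360, 9647, 13150, 11050 and 9268 CPM in the DMSO libraries and 1242 to 3317 CPM (median 2343) in the siSMARCA4 libraries (-2.22 ± 0.19, adjusted p = 9.01e-09), with the siNT libraries between them at 6382 ± 942 CPM (-1.44 ± 0.18, adjusted p = 3.38e-05, within VM -1.81). COL1A2, the partner chain, had 7442, 5976, 6373, 7147 and 6098 CPM and then 389.7 to 895 CPM (median 782) (-3.15 ± 0.17, adjusted p = 2.47e-11). COL11A1, a minor fibrillar collagen, had 32.5, 39.8, 47.3, 34.4 and 25 CPM and then 0.735 to 2.42 CPM (median 1.49) (-4.54 ± 0.21, adjusted p = 2.56e-12, between siRNAs -2.61 ± 0.20, adjusted p = 2.77e-07, within VM -2.50). For these 3 genes all siSMARCA4 libraries lay below all siNT libraries, which in turn averaged below DMSO. Decorin (DCN), a collagen-binding proteoglycan, fell by 5.89 on the log2 scale.

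Other matrix genes had risen or held in senescent cells. Collagen VI chain COL6A3 averaged 2469, 4376 and 2342 CPM in DMSO, siNT and siSMARCA4 libraries, a rise with siNT (0.83 ± 0.24, adjusted p = 0.00603) that was not called with siSMARCA4 (-0.08 ± 0.23, adjusted p = 0.805), whereas its partner COL6A1 stayed up (0.94). Collagen V chain COL5A1 rose with siNT (0.48 ± 0.18, adjusted p = 0.0303) and was below DMSO with siSMARCA4 (-0.66 ± 0.18, adjusted p = 0.00394), with -1.02 within VM and -0.25 within V libraries. Tenascin C (TNC) and periostin (POSTN), proteins of wound matrix, and collagen VII (COL7A1), of anchoring fibrils, kept only part of their rise, at 0.97 of 1.88, 0.84 of 1.78 and 2.35 of 3.24 on the log2 scale. Their siRNA differences within VM libraries were -1.37, -0.98 and -1.05, and TNC was not called there against DMSO (0.63). Fibronectin (FN1) was not called with siNT (0.07) and fell with siSMARCA4 (-0.94 ± 0.28, adjusted p = 0.00749), with overlapping groups.

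The same direction held for the fibroblast markers. That list includes COL1A1, COL1A2 and DCN, already given as matrix genes, so it is no separate count of losses. THY1, a surface marker, had 699.8, 706, 836, 641 and 686 CPM in the DMSO libraries and 103 to 224 CPM (median 161) in the siSMARCA4 libraries (-2.12 ± 0.19, adjusted p = 1.76e-08, between siRNAs -1.15 ± 0.18, adjusted p = 0.000222, within VM -1.61). The PDGF receptor PDGFRB had 209, 193, 236, 184 and 134 CPM and then 31.3 to 70.4 CPM (median 46.8) (-1.95 ± 0.19, adjusted p = 5.23e-08, between siRNAs -1.26 ± 0.18, adjusted p = 0.000107, within VM -1.71), while PDGFRA was not called (-0.10 ± 0.20, adjusted p = 0.71). Of the 10 markers 8 were lower with siSMARCA4 than with siNT, and 7 within VM libraries. Contractile genes were also low, 11 of 13 with a median of -2.05. Here the further loss was less general, since 3 were lower than with siNT and 1 higher, over all libraries and within VM. Smooth muscle actin (ACTA2) fell by 2.05 and transgelin (TAGLN) by 3.47, neither called between siRNAs (0.0958 and 0.0713 as adjusted p), and enteric actin (ACTG2) fell by 4.05 against 2.29 with siNT (difference within VM -2.06). Of 7 IGF-binding proteins 1 rose and 4 fell against DMSO. Between siRNAs 1 was higher and 4 lower with siSMARCA4, over all libraries and within VM. IGFBP2 had 120.4, 112, 186, 111 and 153 CPM in the DMSO libraries and 28.4 to 66.5 CPM (median 44.4) in the siSMARCA4 libraries (-1.64 ± 0.20, adjusted p = 1.37e-06) and did not pass with siNT (-0.28). IGFBP7 fell by 1.22 over all libraries, with -2.01 within VM and -0.17 within V libraries, and IGFBP5 was not called (-0.58 ± 0.37, adjusted p = 0.202), with -1.74 and -0.07.

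HRAS RNA and part of the RAS-MAPK output genes stayed above DMSO. The amount of HRAS RNA is not a measure of RAS activity, since 4OHT switches on a fusion that DMSO cells carry too. HRAS, whose counts cannot separate the cell's own RNA from RNA of a transgene with the same sequence, had 1937, 1836, 1759, 2085 and 2438 CPM in the DMSO libraries and 2544 to 3959 CPM (median 3650) in the siSMARCA4 libraries (0.81 ± 0.13, adjusted p = 2.16e-05), and did not differ by the test between siRNAs (-0.19 ± 0.12, adjusted p = 0.278, within VM -0.09). Of 18 RAS-MAPK output and feedback genes, 11 rose against DMSO and 1 fell, and 6 were lower and 1 higher than with siNT (8 and 2 within VM libraries). DUSP4, a phosphatase that switches ERK off, had 5.21, 4.39, 6.4, 5 and 6.22 CPM and then 12.8 to 38.8 CPM (median 23.4) (2.16 ± 0.26, adjusted p = 8.11e-07), against 76 ± 15.7 CPM with siNT (-1.64 ± 0.23, adjusted p = 9.97e-05, within VM -2.18). SPRY4, a feedback inhibitor of RAS, and ETV4, an ETS factor downstream of ERK, kept 1.14 of 1.90 and 1.05 of 1.71, with siRNA differences of -0.82 and -0.90 within VM. DUSP6 was not called between siRNAs over all libraries but was within VM libraries (-0.73). IER3, an early response gene, rose more (3.82 against 3.27, difference 0.55 ± 0.13, adjusted p = 0.00443, within VM 0.52).

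All 12 genes of the NF-kB and C/EBP list rose against DMSO, with a median of 1.69 against 1.36 in siNT libraries, and 7 were higher than with siNT (4 within VM libraries). RELB, a subunit of the non-canonical NF-kB dimer, had 19.3, 17.1, 9.63, 12.5 and 12.9 CPM in the DMSO libraries and 50.3 to 72.4 CPM (median 66.2) in the siSMARCA4 libraries (2.17 ± 0.15, adjusted p = 8.2e-10). The inhibitor NFKBIA rose by 2.12 and the adhesion molecule ICAM1 by 4.96. CEBPB, a driver of IL6 transcription, rose by 1.53. CEBPD and REL were higher than DMSO with siSMARCA4 (0.88 ± 0.22, adjusted p = 0.00209 and 0.66 ± 0.18, adjusted p = 0.00392) and not called with siNT (-0.13 and 0.01). For CEBPD the groups overlapped and the value within V libraries was 0.30.

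Survival and p53 genes moved less. Of 21 p53 targets 9 rose and 3 fell, with a median of 0.20, and 5 were lower than with siNT and none higher (4 and 1 within VM libraries). GDF15, a stress cytokine, had the highest fold change of the list (4.48 ± 0.15, adjusted p = 6.82e-14). BTG2 and SPATA18 had risen with siNT (0.89 and 0.57) and were not called with siSMARCA4 (0.10 ± 0.18, adjusted p = 0.672 and -0.01 ± 0.15, adjusted p = 0.963), and the death receptor FAS fell below DMSO (-0.60 ± 0.13, adjusted p = 0.000445). Of 10 BCL2 family genes 6 rose and 1 fell. The protective BCL2A1 and MCL1 rose by 7.22 and 1.64, BCL2 itself fell (-1.68 ± 0.29, adjusted p = 7.71e-05), and the killer BMF kept 0.87 of a rise of 1.95 (difference within VM -1.26).

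Genes that detect foreign nucleic acids, and those that answer interferon, were not raised as groups. Of 13 sensing genes tested 1 rose and 3 fell, with a median of -0.21 against -0.12 in siNT libraries, and 3 were higher and 1 lower than with siNT (3 and 2 within VM libraries). CGAS, the cytosolic DNA sensor, had 5.58, 6, 5.33, 5 and 7.35 CPM in the DMSO libraries and 4.16 to 6.06 CPM (median 5.15) in the siSMARCA4 libraries (-0.21 ± 0.13, adjusted p = 0.206), with overlapping groups, whereas it had fallen with siNT to 2.48 ± 0.349 CPM. It thus stood at the DMSO level and above siNT (1.03 ± 0.13, adjusted p = 4.31e-05, within VM libraries 1.15). The kinase TBK1 was the 1 gene that rose (0.42 ± 0.09, adjusted p = 0.000725). STING1, the adaptor between them, was lower over all libraries (-0.77 ± 0.28, adjusted p = 0.0259), with -1.63 within VM and -0.23 within V libraries, and the RNA sensor TLR3 stayed low (-3.38 ± 0.49, adjusted p = 9.1e-06). Of 18 interferon response genes 0 rose and 10 fell, with a median of -0.96 against -0.38 in siNT libraries, and 0 were higher and 3 lower than with siNT (1 and 5 within VM libraries). CXCL10, which rose, was counted with the chemokines above and is not among these 18. IFIT1, which binds viral RNA, had 11.7, 6.9, 4.98, 4.91 and 4.57 CPM in the DMSO libraries and 0.222 to 0.974 CPM (median 0.408) in the siSMARCA4 libraries (-3.80 ± 0.36, adjusted p = 4.04e-08). IFITM1, a membrane restriction factor, fell beyond siNT (-2.08 ± 0.22, adjusted p = 2.21e-07, between siRNAs -1.0 ± 0.21, adjusted p = 0.00273, within VM -1.53).

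Ligands for natural killer cells were mixed, 3 of 10 higher and 3 lower than DMSO. ULBP1, a ligand of the activating receptor NKG2D, had 6.1, 6.59, 8, 4.15 and 3.51 CPM in the DMSO libraries and 7.77 to 22.6 CPM (median 11.4) in the siSMARCA4 libraries (1.24 ± 0.27, adjusted p = 0.000797), with overlap. PVR, a ligand of DNAM-1, rose by 0.65 (adjusted p = 1.44e-07), and its relative NECTIN2 fell by 0.29 (adjusted p = 0.0016). Of the 10, none was higher and 1 lower than with siNT (none and 2 within VM libraries). In antigen presentation HLA-E, the ligand of the inhibitory receptor NKG2A, rose (0.43 ± 0.11, adjusted p = 0.00183) where siNT was not called (0.08), and the peptide transporter TAP1 stayed up (0.73), as the immunoproteasome subunit PSMB9 stayed down (-1.77). HLA genes are near copies, so reads that fit several of them were divided by the counter and their values are less certain.

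Signals of the TGF-beta family split. BMP2 had 5.72, 4, 7.14, 6.09 and 6.22 CPM in the DMSO libraries and 538 to 736 CPM (median 576) in the siSMARCA4 libraries (6.70 ± 0.16, adjusted p = 1.49e-15), and INHBA, an activin chain, rose by 2.31. BMP6 rose with siSMARCA4 (2.15 ± 0.36, adjusted p = 4.82e-05) and was not called with siNT (0.50), at 2.94, 2.29, 3.3, 0.584 and 0.915 CPM in DMSO and 6.07 to 11.7 CPM (median 8.75) in siSMARCA4 libraries. The BMP target ID2 stayed low (-3.04) and TGFB1 kept 0.81 of 1.16 (difference within VM -0.54). In the NOTCH list 4 of 7 rose and 1 fell, the NOTCH targets HEY1 and HES1 by 3.98 and 1.02, while the receptor NOTCH2 was the 1 that fell (-0.97 ± 0.21, adjusted p = 0.000601). The median of the list was 0.74 against 1.06 in siNT libraries, and 0 were higher and 3 lower than with siNT (1 and 3 within VM libraries).

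The lysosome, whose growth gives senescent cells their beta-galactosidase stain, was higher, 14 of 17 genes with a median of 0.76 against 0.35 in siNT libraries, and 6 were higher and 1 lower than with siNT (10 and 2 within VM libraries). Cathepsin S (CTSS) rose by 5.05, the cholesterol exporter NPC1 by 2.82 and the autophagy receptor SQSTM1 by 1.46. HEXA, a lysosomal hexosaminidase, had 78.3, 65.8, 65.8, 71.8 and 77.4 CPM in the DMSO libraries and 104 to 155 CPM (median 134) in the siSMARCA4 libraries (0.89 ± 0.10, adjusted p = 3.04e-07, between siRNAs 0.64 ± 0.09, adjusted p = 0.00012, within VM 0.83), and the fucosidase FUCA1 was the 1 member that fell (-2.04 ± 0.15, adjusted p = 9.78e-10). Of 22 genes of cholesterol and fatty acid synthesis 10 rose and 3 fell. These counts differed between the suffixes, with 10 higher and 2 lower within VM libraries and 2 higher and 5 lower within V libraries. INSIG1, which restrains the pathway, had 51.1, 53.4, 58.8, 55.6 and 62.4 CPM in the DMSO libraries and 55.4 to 152 CPM (median 96) in the siSMARCA4 libraries (0.80 ± 0.18, adjusted p = 0.00117), and the desaturase SCD fell (-0.72 ± 0.14, adjusted p = 0.000177). Of 27 SWI/SNF genes tested, SMARCA4 included, 5 rose and 11 fell against DMSO, and 2 were higher and 6 lower than with siNT (3 and 6 within VM libraries). The subunit SMARCD3 had the largest fall (-1.37 ± 0.08, adjusted p = 7.65e-11), against -1.11 with siNT.

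By fitted value, which for genes with few or no counts in a group depends on the prior count and fixes no rank, the 10 largest rises against DMSO, among genes of at least 1 CPM whose groups did not overlap, were those of cytokines, chemokines and MMP10 apart from 2 pseudogenes. CCL20 had 3 counts over the DMSO libraries and 12848 over the siSMARCA4 libraries, a ratio of 3682 with an exact 95% counting interval from 1260 to 17858. CSF3 was at 0.141, 0, 0, 0.0779 and 0.0169 CPM in DMSO and 68.7 to 217 CPM (median 147) in siSMARCA4 libraries (11.41 ± 0.63, adjusted p = 2.79e-11). TNFSF15, a TNF family cytokine, had 1.32, 0.163, 0.14, 0.37 and 0.0508 CPM and then 262 to 772 CPM (median 386) (10.11 ± 0.58, adjusted p = 4.37e-11). The other 7 by this order were MMP10, IL1B, IL1A, CXCL5, CXCL8 and a pair of pseudogenes without any count in the DMSO libraries, CES1P1, at least 227-fold higher, and FRG2FP, at least 195-fold higher. Pseudogenes share reads with their parent genes, so their counts are uncertain. The largest fitted falls were those of TOX, a chromatin factor, KIT, the receptor of stem cell factor, CRYAB and HSPB7, small heat shock proteins, HTR2B, a serotonin receptor, TRPC5, a cation channel, PRUNE2, the glycosyltransferase GALNT15 and the RNAs LINC01111 and COPG2IT1. KIT had 14.6, 12.9, 18.1, 12.3 and 9.2 CPM in the DMSO libraries and 0.0576 to 0.159 CPM (median 0.111) in the siSMARCA4 libraries (-6.90 ± 0.28, adjusted p = 4.65e-13), below all siNT libraries (-1.98 ± 0.30, adjusted p = 0.000178, within VM -2.08). CRYAB had 5.79, 8.29, 10.8, 9.5 and 11.4 CPM and then 0.0192 to 0.0899 CPM (median 0.0406) (-7.54 ± 0.32, adjusted p = 9.3e-13). TRPC5 had 528 counts over the DMSO and 2 over the siSMARCA4 libraries, a ratio of 307 with an exact 95% counting interval from 84.6 to 2542.

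The 125 restored genes split into 69 that had risen and 56 that had fallen in senescence. Membership depended on the libraries used: 154 genes were restored within VM libraries, 127 with libraries numbered 2 alone and 47 with those numbered 4 alone, of which 42, 53 and 8 are among the 125. With the number as a covariate, a fit added after the data were seen, it was 121, of which 112 are. VGF, a neuropeptide precursor, had 8.78, 10.1, 6.24, 8.31 and 9.57 CPM in the DMSO libraries and 4.37 to 8.91 CPM (median 5.7) in the siSMARCA4 libraries, against 84.5 ± 31.5 CPM with siNT. The siRNA difference was -3.77 ± 0.23, adjusted p = 5.07e-08, within VM -3.74, while against DMSO the log2 fold change was -0.48 ± 0.23, adjusted p = 0.0851 with a 95% interval from -0.96 to 0.00, and it was -0.63 within V and -0.37 within VM libraries. The promoter of VGF holds a full cAMP response element, searched as TGACGTCA, which was found in 1.65% of all windows. Its 150 bases before the start are shown with the element in capitals (chr7:101165570-101165719, minus strand).
VGF: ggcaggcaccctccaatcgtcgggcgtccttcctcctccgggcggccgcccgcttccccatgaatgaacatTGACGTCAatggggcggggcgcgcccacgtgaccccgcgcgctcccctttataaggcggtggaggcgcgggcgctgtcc

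PGBD5, a domesticated transposase, averaged 0.717, 2.93 and 0.846 CPM in DMSO, siNT and siSMARCA4 libraries, and HCLS1, an actin regulator of blood cells, 0.295, 1.19 and 0.289 CPM. For NRCAM, a neural adhesion molecule, the means were 0.472, 1.65 and 0.408 CPM. NRCAM was reversed within VM libraries and with libraries numbered 2 and undetermined with those numbered 4 or with the suffix or number as a covariate, and PGBD5 and HCLS1 were undetermined within VM libraries and with each number alone. VGF was undetermined within VM and reversed with libraries numbered 2. Among fallen genes, PIR, an iron-binding nuclear protein, had 12.5, 11.2, 7.19, 7.98 and 9.48 CPM in the DMSO libraries, 3.92 ± 0.61 CPM with siNT and 6.14 to 11.3 CPM (median 10.1) in the siSMARCA4 libraries (-0.09 ± 0.18, adjusted p = 0.713). CDKN1C, the CDK inhibitor p57, had 6.88, 4.74, 2.56, 3.54 and 4.23 CPM, 1.85 ± 0.51 CPM with siNT and 2.59 to 4.35 CPM (median 3.54) with siSMARCA4 (-0.37 ± 0.23, adjusted p = 0.195). PLPPR3, GALNT12, ABHD17C and the RNA RPSAP52 also lay among the 8 largest restorations after a fall, with siRNA differences from 1.04 to 2.27, and from 0.96 to 2.67 within VM. Classes changed for the fallen genes as well. PIR and ABHD17C were restored within VM libraries, PLPPR3 was reversed there and with libraries numbered 2, and RPSAP52 was undetermined there. CDKN1C and GALNT12 did not meet the criteria for a senescence gene within VM or with libraries numbered 4, where of these 6 genes only PLPPR3 was restored. Against DMSO CDKN1C was at -0.99 within V and 0.17 within VM libraries.

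The return to the DMSO level was not uniform between V and VM libraries. For 63 of the 69 genes that had risen a value could be had in both. Of these 63, 52 stayed within 2-fold of DMSO in both, and 48 had the V value above the VM value. For 11 the values had opposite signs and at least 2-fold in one of them. SEMA7A, a membrane semaphorin, shows this with 45.5, 76, 217, 138 and 165 CPM in the DMSO libraries, 155, 263 and 198 CPM in the siSMARCA4 V libraries and 72.8, 74 and 89.5 CPM in the VM libraries. Its log2 fold change against DMSO was 1.76 within V, -1.14 within VM and 0.15 over all libraries. CXXC4 and PCDH1 did the same (1.60 and -1.28, 2.01 and -1.01). Of the genes that had fallen, 53 had both values. Of these, 47 stayed within 2-fold in both and 41 lay lower in V than in VM, NNAT with -0.93 and 0.79. For 6 the values had opposite signs and at least 2-fold in one of them. V and VM differ in the SMARCA4 RNA left in the siSMARCA4 libraries, as given at the start, and also in their DMSO libraries. Within each suffix the DMSO and siSMARCA4 libraries also differ in their mix of numbers 2 and 4. What part each has in this was not tested. The genes were picked on these same libraries, and no share over all genes with the same order of V and VM is given.

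**Figure D5:**
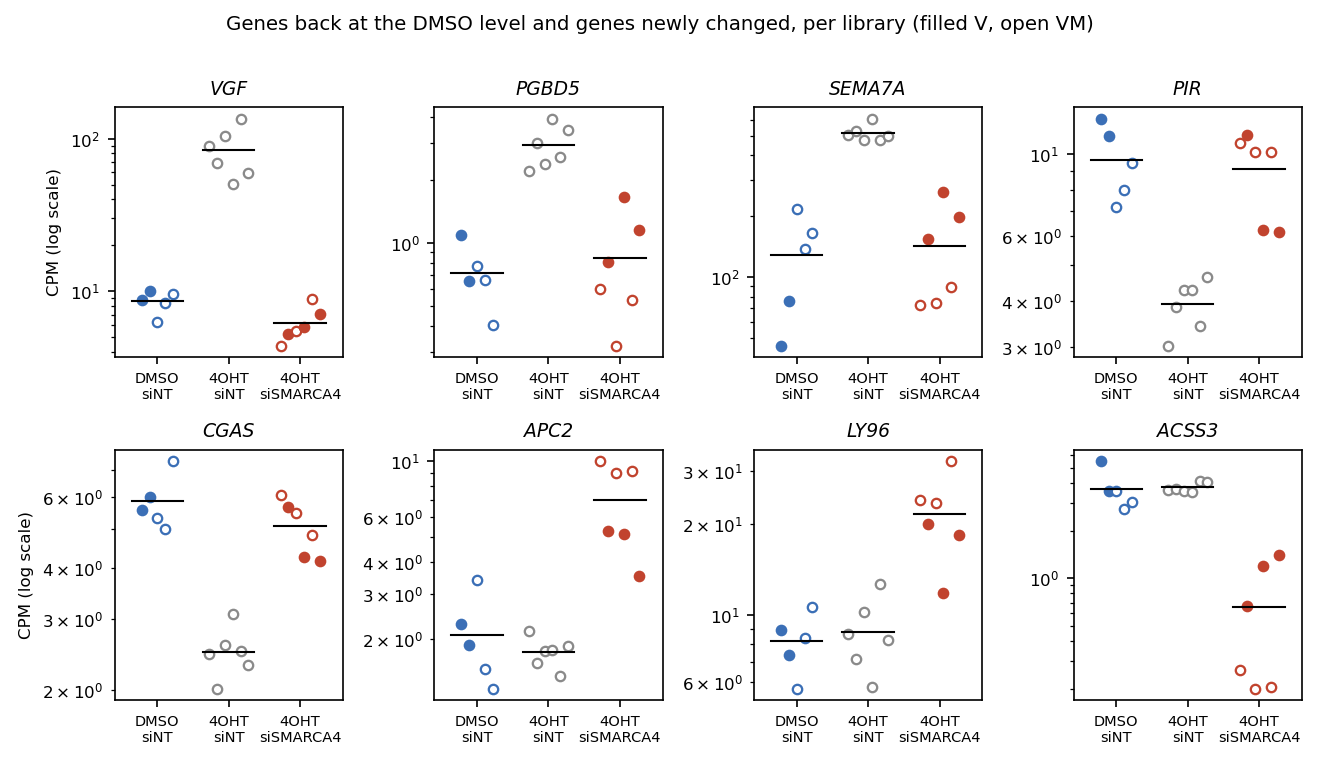
Levels of 8 genes in each library in CPM on a log axis, V libraries filled and VM libraries open, with a line at the group mean. VGF and PGBD5 are high in 4OHT siNT and near DMSO with siSMARCA4, PIR and CGAS are low in siNT and near DMSO with siSMARCA4, SEMA7A splits by suffix, and for APC2, LY96 and ACSS3 the siSMARCA4 libraries do not overlap DMSO while the siNT libraries do.

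The 8 reversed genes had moved beyond the DMSO level. The class held 29 genes within VM libraries, of which 4 are among the 8, and 0 with libraries numbered 4 alone, while all 8 were in it with the number as a covariate. B4GALNT1, which makes gangliosides, was the 1 that had fallen with siNT and rose above DMSO (0.56 ± 0.23, adjusted p = 0.0454). The other 7 had risen with siNT and lay below DMSO with siSMARCA4 over all libraries. Cholecystokinin (CCK) had 0.616, 0.776, 1.58, 0.565 and 0.796 CPM in the DMSO libraries, 2.06 ± 1.32 CPM with siNT and 0.0201 to 0.249 CPM (median 0.151) with siSMARCA4 (-2.68 ± 0.54, adjusted p = 0.000306). The siNT libraries held 2.73, 3.39 and 3.57 CPM where numbered 2 and 1.03, 0.644 and 1.02 CPM where numbered 4, so the rise with siNT lay mainly in the former. ABCA12 divided in the same way, with 0.643, 0.81 and 1.03 against 0.357, 0.202 and 0.115 CPM. For ANK3, PARM1, SLC25A27 and PLXNA4 too, every siNT library numbered 2 lay above every one numbered 4, and for PMEL below. The melanosome gene PMEL averaged 1.54, 6.6 and 0.925 CPM (-0.73 ± 0.25, adjusted p = 0.0194) and PLXNA4, a semaphorin receptor, 1.15, 2.65 and 0.34 CPM (-1.73 ± 0.40, adjusted p = 0.00113). ABCA12, ANK3, SLC25A27 and PARM1 had log2 fold changes from -1.93 to -0.85. Values differed between V and VM here too. PARM1 had 0.36 within V and -2.3 within VM libraries, B4GALNT1 -0.0224 and 0.974, and the 5 of the 7 with both values lay lower in VM than in V. The 8 genes were named after their values were seen, since none had both a mean of at least 1 CPM in DMSO or siSMARCA4 libraries and no overlap between those groups.

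New changes were those not called in senescence, with a 95% interval inside 2-fold, and with at least a 2-fold change with siSMARCA4 against both other groups. They were few, 17 higher and 67 lower, where 1.26% of all genes were higher and 3.48% lower by 2-fold or more between siRNAs (4.75% in either direction), and within VM libraries, which are part of the same data, 9 of the 17 and 52 of the 67 met all these criteria again, and with the suffix as a covariate 9 and 56. With libraries numbered 2 alone 4 of the 17 and 31 of the 67 passed these criteria again, and with those numbered 4 alone 0 and 12. APC2, a relative of the APC tumour suppressor, had 2.29, 1.88, 3.4, 1.52 and 1.27 CPM in the DMSO libraries, 1.77 ± 0.241 CPM with siNT and 3.53 to 9.97 CPM (median 7.11) with siSMARCA4 (1.75 ± 0.27, adjusted p = 2.18e-05). LY96, also called MD-2 and the co-receptor of TLR4, had 8.9, 7.39, 5.7, 8.41 and 10.6 CPM, 8.79 ± 2.41 CPM with siNT and 11.8 to 32.2 CPM (median 21.7) with siSMARCA4 (1.40 ± 0.23, adjusted p = 3.7e-05). The fatty acid ligase ACSL4 had 192, 141, 98.4, 138 and 119 CPM, 171 ± 24.7 CPM with siNT and 295 to 405 CPM (median 339) with siSMARCA4 (1.35 ± 0.14, adjusted p = 2.2e-07). The tetraspan protein EMP2 (1.05), the zona pellucida gene ZP3 (1.5) and RPH3AL, an effector of secretory RAB proteins (1.32), complete the 6 of them with at least 1 CPM and no overlap with DMSO.

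The 67 newly lower genes were of many kinds, with 2 of the 17 other matrix proteins, 1 IGF-binding protein and 0 of the 19 collagens tested among them. SERPINF1, an inhibitor of vessel growth also called PEDF, had 63.6, 33.1, 28.6, 27.5 and 27.2 CPM in the DMSO libraries, 31.8 ± 2.54 CPM with siNT and 4.96 to 11.8 CPM (median 9.12) with siSMARCA4 (-2.03 ± 0.24, adjusted p = 6.8e-07). Biglycan (BGN), a small proteoglycan, had 169, 156, 319, 135 and 119 CPM, 170.1 ± 19.3 CPM with siNT and 22.4 to 94.5 CPM (median 40.2) with siSMARCA4 (-1.79 ± 0.35, adjusted p = 0.000231), with -2.92 within VM and -1.05 within V libraries. Thrombospondin 2 (THBS2) fell by 1.12 and IGFBP2 by 1.64. ACSS3, an acetyl-CoA synthetase of mitochondria, had 5.47, 3.53, 3.58, 2.75 and 3.03 CPM, 3.75 ± 0.272 CPM with siNT and 0.2 to 1.41 CPM (median 0.467) with siSMARCA4 (-2.46 ± 0.39, adjusted p = 2.86e-05). Every siSMARCA4 library lay below every library of both other groups. SGCD, a sarcoglycan, the urea transporter SLC14A1, the ephrin receptor EPHB1, the protease ADAMTS19, CRYBG1 and PPFIBP2 had log2 fold changes from -2.41 to -1.98. Of the 66 newly lower genes with a value in both suffixes, 41 were at least 2-fold lower in both and 58 lay lower in VM than in V. Of the 17 newly higher genes 9 were at least 2-fold higher in both and 16 lay higher in VM. Both sets were picked for their change over these same libraries, and no share over all genes is given beside these counts. They describe these classes only.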

How the data were processed

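RNA of IMR90 ER:RAS cells was sequenced as poly(A)-selected, strand-specific paired-end libraries. Per the study's methods and the submitters' processing notes, which give the HISAT2 version, the authors trimmed reads with Cutadapt 4.7, aligned them to GRCh38 with HISAT2 2.2.1, keeping up to 100 alignments per read, and counted genes (Ensembl release 100) and repeats with TElocal, set for reverse-stranded reads that may map to many places. The deposited tables hold estimated counts per gene and repeat, in which reads that fit several places are divided by the counter, so near copies (HLA, IFIT and CXCL1 to CXCL3 genes, pseudogenes) are less certain. Only gene rows were used here, 98.1 to 98.6% of each library's counts, 62754 in all, of which 62700 matched GENCODE 44 for names and positions. The depth of 38559660 to 67759411 gene counts per library makes counting error small for genes above about 1 CPM. Intervals on ratios of counts cover counting error only.

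The estimated counts were whole numbers as deposited. Genes with a count of at least 10 in a group's number of libraries and 15 in total (filterByExpr) were kept, 19473, of which 16406 carried a symbol. The edgeR 4.0.16 quasi-likelihood model in R 4.3.3 had the 3 groups of all 17 libraries and TMM factors (0.951 to 1.07), with Benjamini-Hochberg adjustment over all genes kept. The siSMARCA4 against DMSO and siNT against DMSO contrasts share the DMSO libraries, and the siRNA contrast shares the siSMARCA4 libraries with the first. Libraries of a group differed by more than sampling noise (chi-square per gene 4.70 to 150), and all were kept. This cannot tell separate cultures from separate libraries of the same culture. The script was tested on simulated data. Alternatives were other normalizations, DESeq2, no count filter, subsets by suffix and by the number 2 or 4, that number or the suffix as a covariate, a block, and leaving out each library. The comparison, the gene lists and the rules were chosen with earlier results of these data known. Named genes are SMARCA4, MKI67 and IL6, list members with the largest called changes in each direction or a change of class, the 10 largest rises and falls, and up to 8 of each class by size, with a mean of at least 1 CPM in 1 of the groups compared and no overlap between them. Some list members beside these were named after their values were seen, and a few genes are not reported here. Labels of groups sharing a replicate number did not pair, with correlations of their deviations of -0.0363 to 0.0484. Promoter sequences are RefSeq windows of GRCh38.p14.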

Additional observations from a re-analysis of the deposited data

Results flagged for a closer look

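In 27 of 338 groups of libraries examined for 169 named genes, the highest or lowest library stood further from its neighbour than Dixon's 95% limit allows. Chance gives about 1 in 20 such groups.

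Among DMSO libraries, 2-2VM was high for ACTA2 (494 against a group median of 232 CPM), BGN (319 against 156), EPHB1 (2.79 against 1.09), SMARCD3 (56.3 against 42.5) and TRPC5 (5.19 against 1.11), and low for IL15 (2.09 against 3.71). Library 2-1V was high for CXCL10 (1.44 against 0.214 CPM), TNFSF15 (1.32 against 0.163) and SERPINF1 (63.6 against 28.6) and low for CCNE1 (9.41 against 11.4). Library 4-3VM was low for FN1 (4741 against 7639 CPM), TNC (150 against 317) and SMARCA2 (30.3 against 44) and high for HES1 (21.0 against 14.6).

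Among siSMARCA4 libraries, 4-2VM was high for MMP3 (2881 against 1722 CPM) and HMGB2 (5.29 against 3.39) and low for COL1A2 (389.7 against 782), POSTN (187 against 361) and PTGS1 (7.31 against 14.1). Library 4-3V was low for HRAS (2544 against 3650 CPM), HLA-E (159.6 against 238) and RPH3AL (1.31 against 1.94) and high for CXXC4 (0.713 against 0.282). Library 2-3V was high for IER3 (2116 against 1548 CPM) and COPG2IT1 (0.0576 against 0.00749), 2-3VM for HTR2B (0.0601 against 0) and 4-2V for TNC (1055 against 487). Library 2-2VM among the DMSO libraries had the most flags, 6, and 4-2VM among the siSMARCA4 libraries 5.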

How the results depend on the processing

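The numbers of genes higher and lower than DMSO stayed within 1.5 times of 5334 and 5455 under every alternative run, with 5412 and 5493 by DESeq2, 4783 and 5219 from the 11 libraries of both groups alone, and 4792 to 5511 and 5228 to 5586 when each library was left out in turn. The small classes moved more. Restored genes numbered 47 with libraries numbered 4 alone, of which 8 are among the 125. Reversed genes numbered 19 with the suffix as a covariate, 29 within VM libraries, 29 with number 2 and 0 with number 4. New higher genes numbered 31 within VM libraries, 30 with number 2 (4 of the 17) and 5 with number 4 (0 of the 17), and new lower genes 118 within VM and 32 with number 4 (12 of the 67). With 1.5-fold in place of 2-fold there were 5849 persisting, 21 reversed and 53 new higher genes, and the restored (165) and new classes were largely other genes, with 13 of the 125, 1 of the 17 and 16 of the 67 kept. Leaving out each library gave 3598 to 3787 persisting, 101 to 138 restored, 4 to 15 reversed (4 without DMSO 2-2V, 15 without siSMARCA4 4-3V), 12 to 24 new higher (24 without siSMARCA4 4-3V) and 58 to 90 new lower genes. Same-numbered libraries share only a number, and the fit with the replicate number as a block gave 5162 higher and 5232 lower genes and classes of 3677, 103, 7, 19 and 60 genes.

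Reversed in sign within VM libraries were the values of SEMA7A (-1.14), CXXC4 (-1.28), PCDH1 (-1.01), NCKAP5-AS2 (0.53) and the median of the nucleic acid sensing list (0.0196), within V libraries, a subset added after the data were seen, NNAT (-0.93), and with number 4 the medians of the sensing list (0.000683) and the HLA list (-0.01). Of the other values of named genes, 4817 kept side and direction, 37 newly passed and 42 no longer passed. Of the list medians 46 others moved by more than the spread between libraries, mostly in subsets by suffix or number, among them NOTCH (0.74 to 0.198 from the 11 libraries alone), IGF-binding proteins (-1.22 to -0.174 within V), metalloproteinases (1.48 to 0.941 within VM) and collagens (-1.1 to -0.78 with number 4). The number as a covariate, added after the data were seen, gave 5349 higher and 5489 lower genes. The cause of these changes was not tested. Depth limits genes below about 1 CPM, where a group of 3 counts or fewer gives only a bound or a wide interval.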
